A study of Arabidopsis thaliana with 8 samples.

Results

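UDP-glycosyltransferases, written UGT in Arabidopsis, were followed in dark-grown seedlings given ethylene gas for a short time. The genes were taken from the array's annotation by name alone: each had to be the only gene named by its probe set, the group of probes that reports 1 transcript, and its symbol had to begin with UGT and a number. This gave 47 of the 13350 genes named on the array, in 11 subfamilies by the number in the symbol, and each had a single probe set. The largest were subfamily 71 with 9 genes, subfamily 76 with 8, subfamily 73 with 7, and subfamilies 84 and 85 with 5 each. Subfamily 72 held 4 genes, subfamilies 74 and 78 held 3 each, and subfamilies 80, 87 and 88 held 1 each. RefSeq's gene table lists 58 symbols of this form, so the 47 are not the whole family. The 8 arrays were hybridised with total RNA of seedlings, with no organ named, of wild-type Col-0, frozen at 3 days of age. The 4 ethylene arrays came from seedlings held in the dark for 68 h in air and then for 4 h in ethylene at 10 ppm. The 4 air arrays came from seedlings held in the dark for 72 h with no ethylene. Each group had 2 replicas in each of 2 experiments, and lists of 4 values below run in the order 1-1, 1-2, 2-1 and 2-2, experiment first. Nothing in the labels says that replicas were separate cultures, so a p-value here speaks of the scatter among these arrays, which may be partly technical.

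UGTs transfer a sugar from a UDP-sugar, most often glucose, to a small molecule. In plants the acceptors include hormones, phenylpropanoids, flavonoids, glucosinolate precursors, sterols and foreign chemicals, and the added sugar usually makes the product more soluble, less active or ready for storage in the vacuole. Many members lie side by side on the chromosome as copies of each other, and an enzyme often accepts several substrates in the test tube.

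Each value was a scaled intensity, the brightness of a probe set, and was compared between arrays for the same probe set. Exceptions were sums of marker genes and, for adjacent UGT genes, the ratio of their probe sets. Brightness does not rank transcripts of different genes, and the brightest probe sets are named below only to show where signal was strong. Array medians lay between 833 and 980. Of the 47 genes, 33 passed a filter that removed the dimmest 30% of probe sets, and 14 fell under it (29.8%, against 35.8% of all named genes). The dimmest gene tested, UGT72B3, had a mean log2 value of 8.066, and the brightest gene left out, UGT71B5, had 8.003. Of the markers of an etiolated seedling, PORB and WAG2 were measured and bright, with PORB at 27523.5 or more on every array. Together they summed to 46893 to 81343 in ethylene and to 36427 to 46019 in air. The lists of seed storage, light-grown leaf and flower or pollen genes had no probe set named in the annotation used. It gave no gene for 8794 of the 22810 probe sets. The 3 measured root hair genes of a list of 5 summed to 6039 to 8250 in ethylene and to 3220 to 5526 in air. EXPA7 rose by 0.82 on the log2 scale in ethylene (limma adjusted p = 0.0483) and XTH26 by 3.1004 (limma adjusted p = 0.0169), and the part of these markers in the differences below was not tested. The RNA was a bulk sample of seedlings, so fewer cells of a type and less RNA per cell cannot be told apart. Probe sequences were not used here, and how far a probe set also binds a close relative was not tested.

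After ethylene the family stood mostly below air. Among the 33 tested genes, 24 had a negative log2 difference, ethylene minus air, and 9 a positive one, so 27.3% were positive, against 51.5% of all 15922 probe sets tested. The median difference was −0.23 for the UGT genes and 0.01 for all probe sets. Differences of the 33 genes ran from −1.85 for UGT71B1 to 1.098 for UGT74F1. With median scaling 23 of 33 were negative and with quantile normalization 22 of 32. Without air 2-2, 19 of 32 were negative and the median was −0.08, against 0.02 for all probe sets. With no filter, 35 of the 47 genes were negative and their median was −0.28, against 0.00 for all probe sets.

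Few of these differences passed the test. In limma with the group as its only term, 1 of the 33 genes (3.03%) was lower in ethylene at an adjusted p under 0.05 and none was higher. Of all probe sets 2.55% were lower and 1.56% higher, so the share of lower UGT genes was near that of the array. At an unadjusted p under 0.05 there were 9 of the 33 UGT genes, and 2224 of all 15922 probe sets. The labels tie the samples of an experiment together across the groups, and with the experiment as a block 6 genes were lower (18.2% of the 33) and 1 was higher (3.03%). In that model 7.35% of all probe sets were lower and 4.33% higher. For 4 of the tested genes, UGT71C1, UGT72E1, UGT76B1 and UGT84A4, all 4 ethylene values lay below all 4 air values, which held for 6.29% of all probe sets. No UGT gene had all its ethylene values above air, a pattern seen in 4.19% of all probe sets. The plot of differences by subfamily shows these genes together.

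**Figure D1:**
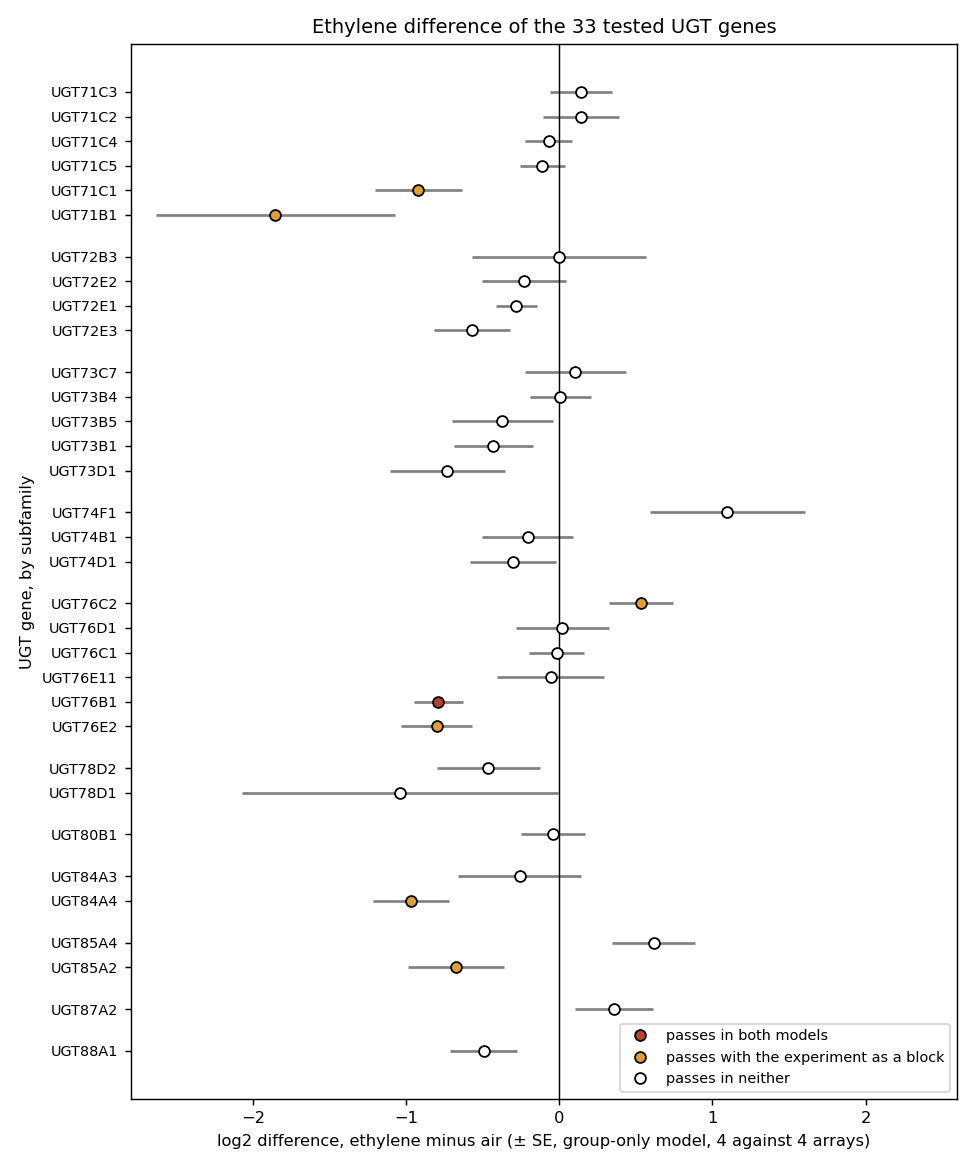
Log2 difference, ethylene minus air, of the 33 tested UGT genes, grouped by subfamily number, with bars of ± 1 SE from the model with group only (4 ethylene and 4 air arrays). Points lie left of 0 for 24 genes, and UGT76B1 is the gene that passes in both models.

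UGT76B1 (AT3G11340), which glucosylates isoleucic acid, salicylic acid and N-hydroxypipecolic acid and is known as a brake on immune signalling, was the brightest UGT probe set in air and the gene that fell in both models. Its intensities were 8789.7, 8208, 6419 and 8916 in ethylene, against 13061, 11762, 16254 and 14902 in air. Every ethylene array was below every air array, in both experiments. The means were 8083 ± 1152 in ethylene and 13995 ± 1982 in air (SD, n = 4), so that it fell by a log2 difference of 0.79, with an SE of 0.16 (limma adjusted p = 0.0192, or 0.00123 with the block). Without air 2-1, air 2-2 or ethylene 1-2 its adjusted p in limma with group only was 0.0603, 0.0620 or 0.0563. It also did not pass with replicas as a random block (limma adjusted p = 0.112) or in experiment 1 alone (limma adjusted p = 0.0667). With the experiment as a block it passed whichever array was left out.

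UGT74F1, a salicylic acid glucosyltransferase, passed neither model and had the highest difference among the 33 tested genes, a rank and a size that rest on air 1-1. Its intensities were 319, 453, 718 and 982 in ethylene, against 80.7, 323, 393 and 393 in air. In experiment 2 both ethylene arrays were above both air arrays, and in experiment 1 the lower ethylene array was just below the higher air array (difference 1.098, SE 0.50, limma adjusted p = 0.366, or 0.0589 with the block). Without air 1-1 its difference with group only was 0.60, below 0.73 for UGT85A4 and 0.72 for UGT76C2. UGT71C3, which glucosylates methyl salicylate, differed by 0.14 (SE 0.20). UGT76D1, which acts on dihydroxybenzoic acids, differed by 0.02 (SE 0.30), and neither passed in either model.

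Among UGTs of phenylpropanoid metabolism, UGT84A4 (AT4G15500), whose enzyme forms glucose esters of hydroxycinnamic acids, was lower in the blocked model. Its intensities were 604, 431, 588 and 626 in ethylene, against 913, 843, 1631 and 1179 in air. The highest ethylene value was below the lowest air value. The difference was −0.97 (SE 0.25), with a limma adjusted p of 0.0568 with group only and 0.00483 with the block. Its neighbour UGT84A3, of the same activity, had overlapping groups and a difference of −0.26 (SE 0.40). UGT84A1, the other enzyme of this kind measured, was under the filter, at no more than 43.0 in ethylene and 38.8 in air.

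The 3 UGT72E genes encode glucosyltransferases of monolignols, the building blocks of lignin, and their aldehydes. All were lower on average in ethylene, and none passed either model. UGT72E1 had 2945, 3167, 3089 and 2796 in ethylene, against 3198, 3950.0, 3884 and 3583 in air. These groups did not overlap, but the step was small, at −0.28 (SE 0.13, limma adjusted p = 0.391, or 0.179 with the block). UGT72E3 had 731, 610.0, 514 and 489 in ethylene, against 774, 613, 1134 and 1044 in air. Its ethylene and air arrays were close in experiment 1 and well apart in experiment 2, and the difference was −0.57 (SE 0.25, limma adjusted p = 0.323). UGT72E2, the second brightest UGT probe set in air, averaged 8157 ± 3256 in ethylene and 9319 ± 2439.6 in air (SD, n = 4) and differed by −0.23 (SE 0.28). UGT72B3 completed subfamily 72 with the difference nearest to 0 of its subfamily, −0.0029.

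UGT71C1 (AT2G29750), whose enzyme glucosylates flavonoids and simple phenolics in the test tube, was among the 5 brightest UGT probe sets in air. Its intensities were 2524, 2700.4, 2765 and 2294 in ethylene, against 3025, 3534, 6482 and 8122 in air. The ethylene arrays were close to each other and all below air, and the air arrays of experiment 2 were far above those of experiment 1. The means were 2571 ± 211 in ethylene and 5291 ± 2426 in air (SD, n = 4), a difference of −0.92 (SE 0.28). Its limma adjusted p was 0.122 with group only and 0.00741 with the block, and in the blocked model it passed whichever array was left out.

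The UGT78D genes put sugars on flavonols and anthocyanidins. UGT78D1, a flavonol rhamnosyltransferase, had 41.6, 47.7, 979 and 759.7 in ethylene, against 128, 262, 962 and 1287 in air. The experiments stood further apart than the groups, and over all arrays the difference was −1.04 (SE 1.03, limma adjusted p = 0.77, or 0.076 with the block). In the model with a mean for each experiment and group, its ethylene arrays in experiment 1 were lower, at −1.72 on the log2 scale with an SE of 0.44 (limma adjusted p = 0.0362). That call was lost with a pseudocount of 64 and with quantile normalization, and in a fit on the arrays of experiment 1 alone the gene was under the filter. UGT78D2, a flavonoid 3-O-glucosyltransferase, averaged 562 ± 170.2 in ethylene and 793 ± 305 in air (SD, n = 4), with a difference of −0.46 (SE 0.33). UGT78D3, a flavonol arabinosyltransferase, was at most 36.0 in ethylene and 36.2 in air and was under the filter.

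UGT76C2 (AT5G05860), which attaches glucose to a ring nitrogen of cytokinins, was the gene higher in ethylene in the blocked model. Its intensities were 3645, 4367, 3801 and 3040.1 in ethylene, against 3801, 2406, 1996 and 2289 in air. Air 1-1 lay among the ethylene values, and the other 3 air arrays were below all of them. The difference was 0.53 (SE 0.21), with a limma adjusted p of 0.257 with group only and 0.0427 with the block. With the block and 1 array left out it passed in 2 of 8 fits, without air 1-1 or without ethylene 1-1. In the other 6 its limma adjusted p lay between 0.0657 without ethylene 2-2 and 0.154 without air 1-2. Its neighbour UGT76C1, of the same cytokinin activity, averaged 1731 ± 241 in ethylene and 1758 ± 288 in air (SD, n = 4) and differed by −0.02 (SE 0.18).

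For auxin, UGT74D1, which glucosylates indole-3-acetic acid and its oxidised form, had a difference of −0.30 (SE 0.28, limma adjusted p = 0.751). UGT84B1, an indole-3-acetic acid glucosyltransferase, was under the filter at 7.4 to 216 in ethylene and 12.8 to 76.5 in air. Its neighbour UGT84B2 was also under it, at no more than 47.9 in ethylene and 171 in air. For abscisic acid, UGT71C5, which forms its glucose ester, was among the 5 brightest UGT probe sets in air and averaged 4487 ± 293 in ethylene and 4883 ± 723 in air (SD, n = 4), a difference of −0.11 (SE 0.15). UGT71B6, another abscisic acid glucosyltransferase, was under the filter.

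Of the enzymes with other acceptors, UGT74B1, which adds the glucose of the glucosinolate core, differed by −0.21 (SE 0.29). UGT80B1, a sterol glucosyltransferase, differed by −0.04 (SE 0.21), and UGT87A2, known for an effect on flowering time, by 0.36 (SE 0.26). None of these passed either model. In subfamily 73, whose members UGT73B4 and UGT73B5 are known from pathogen and xenobiotic responses, none of 5 tested genes passed, and differences ran from −0.73 (SE 0.38) for UGT73D1 to 0.10 (SE 0.33) for UGT73C7. UGT73B1 differed by −0.43, UGT73B4 by 0.01 and UGT73B5 by −0.37. UGT88A1 differed by −0.49 (SE 0.22, limma adjusted p = 0.336), and UGT71C4 by −0.07 (SE 0.15).

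UGT76E2, UGT85A2 and UGT71B1 were lower in the blocked model only. UGT76E2 (AT5G59590) had 863, 1289.5, 612 and 836 in ethylene, against 1747, 1288, 1669 and 1443 in air. Ethylene 1-2 was just above the lowest air array, and the other ethylene values lay below all of air. The difference was −0.80 (SE 0.23), with a limma adjusted p of 0.0951 with group only and 0.0174 with the block. In the blocked model it did not pass without air 2-1 (limma adjusted p = 0.0698), air 2-2 (0.0555), ethylene 1-1 (0.0539) or ethylene 2-1 (0.0643). UGT76E11, of the same subfamily, differed by −0.06 (SE 0.35).

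UGT85A2 (AT1G22360), 1 of 4 neighbouring UGT85A genes and the third brightest UGT probe set in air, had 2217, 3349.6, 4281 and 3982 in ethylene, against 3720.3, 3580.0, 7011 and 8890.1 in air. Ethylene was below air within each experiment, and the groups overlapped across experiments, where experiment 2 was brighter in both. The difference was −0.68 (SE 0.31), with a limma adjusted p of 0.375 with group only and 0.00994 with the block. UGT85A4, the tested gene of subfamily 85 with the highest difference, had 1077, 790.1, 1056 and 1569 in ethylene, against 903, 518, 577 and 913 in air. Its groups overlapped, and the difference of 0.62 (SE 0.27) had a limma adjusted p of 0.328.

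UGT71B1 (AT3G21750) had the lowest difference among the 33 tested genes, a rank that rests on ethylene 1-1. Its intensities were 9.1, 226, 432 and 308 in ethylene, against 351, 506, 732 and 1033 in air. Ethylene 1-1 stood far below all other arrays, and 1 of the other ethylene values was above the lowest air value. The difference was −1.85 (SE 0.78), with a limma adjusted p of 0.303 with group only and 0.0411 with the block. Without ethylene 1-1 it was −1.07 in the blocked model, with a limma adjusted p of 0.0227, and UGT84A4 was then lower, at −1.10. In that model it did not pass without air 1-1, air 1-2, air 2-2, ethylene 2-1 or ethylene 2-2, with limma adjusted p between 0.05002 and 0.131.

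**Figure D2:**
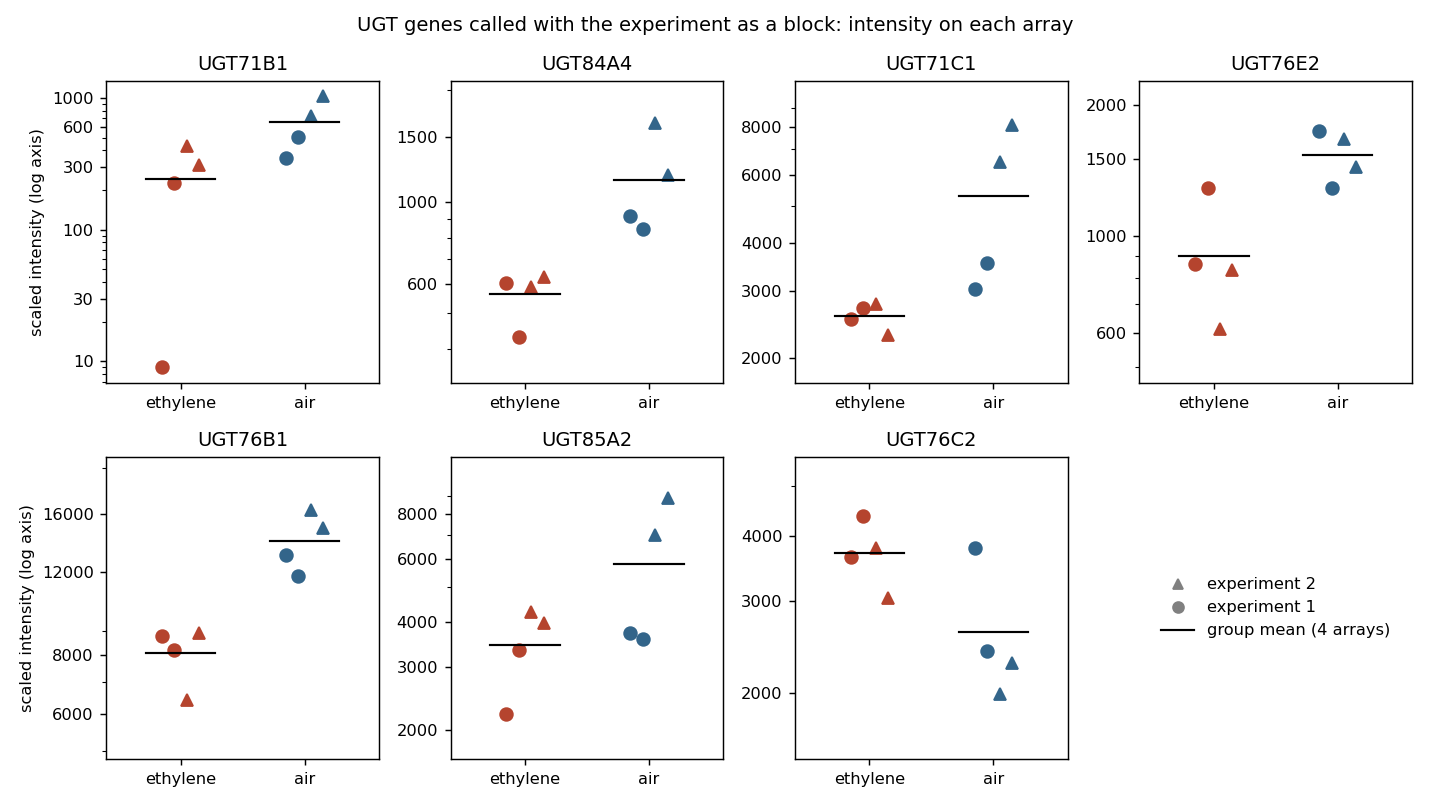
Scaled intensity on each array (log axis) of the 7 UGT genes that passed with the experiment as a block, with ethylene left of air, triangles for experiment 2, circles for experiment 1 and a line at each group mean of 4 arrays. UGT76B1, UGT71C1 and UGT84A4 have no overlap between groups, UGT71B1 has 1 ethylene array at 9.1, and UGT76C2 is the gene with the higher ethylene mean.

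The 14 genes under the filter were UGT71B5, UGT71B6, UGT71B8, UGT73C1, UGT73C2, UGT76E1, UGT76E12, UGT78D3, UGT84A1, UGT84B1, UGT84B2, UGT85A3, UGT85A5 and UGT85A7. Their intensities lay between 6.1 and 547.6, and 12 of them had a median under 100. Detection calls were not given, so a dim value can be mostly background. UGT85A5 was the gene among them whose groups did not overlap, with 60.3, 127, 188 and 6.4 in ethylene, against 465, 528, 362 and 288 in air. With no filter applied its difference was −2.31 and its limma adjusted p 0.0925. UGT71B5, the brightest of them, had 61.8, 375, 71.5 and 266 in ethylene, against 474, 548, 298 and 272 in air, and its groups overlapped. UGT73C1, known to act on cytokinins and xenobiotics, was at 14.8 to 35.6 in ethylene and 8.5 to 17.1 in air, so that its groups overlapped. UGT71B6, UGT71B8, UGT73C2, UGT76E1, UGT76E12, UGT85A3 and UGT85A7 had overlapping groups too, and none of their values went above 291.7 in ethylene or 466.5 in air.

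The ethylene response was also compared between directly adjacent UGT genes, with a test that could hardly call a pair. A pair alone at the smallest possible exact p has 0.2 after adjustment over 7 pairs, so the lack of calls decides nothing here. In RefSeq's gene order 31 of the 47 genes fell into 13 runs of 2 or more with at most 2 other genes between neighbours, and 7 directly adjacent pairs had both genes tested. For each pair the log2 ratio of the genes on an array was compared between the groups. UGT71C2, next to UGT71C1, had 757, 957, 683 and 544 in ethylene, against 474, 761, 798 and 629 in air, so that its groups overlapped while those of UGT71C1 did not. The ratio of UGT71C2 to UGT71C1 was higher by 1.06 log2 units in ethylene, with every ethylene array above every air array (exact permutation test, two-sided p = 0.0286, the smallest that 4 against 4 arrays allow, or 0.2 after Benjamini-Hochberg adjustment over 7 pairs). UGT84A3 against UGT84A4 differed by 0.71 (exact p = 0.229), UGT76C2 against UGT76C1 by 0.55 (exact p = 0.143), and UGT73D1 against UGT73C7 by −0.83 (exact p = 0.2), each with an adjusted p of 0.4. The other 3 pairs differed by −0.38 to −0.04, with adjusted exact p of 0.533 to 0.8.

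Within the experiments, the median difference of the family was further below 0 in experiment 2. The median difference of the 33 genes was −0.34 in experiment 2, with 26 negative, and −0.10 in experiment 1, with 20 negative, while the medians of all probe sets were 0.02 and −0.00. In experiment 2 the 6 genes UGT71C1, UGT72E3, UGT76B1, UGT76E2, UGT84A4 and UGT85A2 were lower and none was higher, where 3.88% of all probe sets were lower and 2.38% higher. In experiment 1 UGT78D1 was lower and none was higher, where 3.65% of all probe sets were lower and 2.54% higher. UGT72E3 passed within experiment 2 but not with group only or with the block, at −1.09 in experiment 2 (limma adjusted p = 0.0326) against −0.04 in experiment 1. UGT71C1 had the smallest p of these in experiment 2, with a log2 difference of −1.52 there (limma adjusted p = 0.000273) against −0.32 in experiment 1. Of the 6 genes lower in the blocked model, 5 had the larger decrease in experiment 2, and UGT71B1 had the larger one in experiment 1. That exception rests on ethylene 1-1 of UGT71B1, at 9.1. Without this array its blocked difference over both experiments was −1.07, a smaller decrease than the −1.22 within experiment 2. The difference between the experiments' ethylene effects was itself tested and passed for no UGT gene. The smallest limma adjusted p among them was 0.613, for UGT71C1, and over all probe sets it was 0.107. An unadjusted p under 0.05 was found for 4 of the 33 genes and for 917 of all 15922 probe sets. In sign, 19 genes were negative in both experiments, 6 were positive in both and 8 differed.

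**Figure D3:**
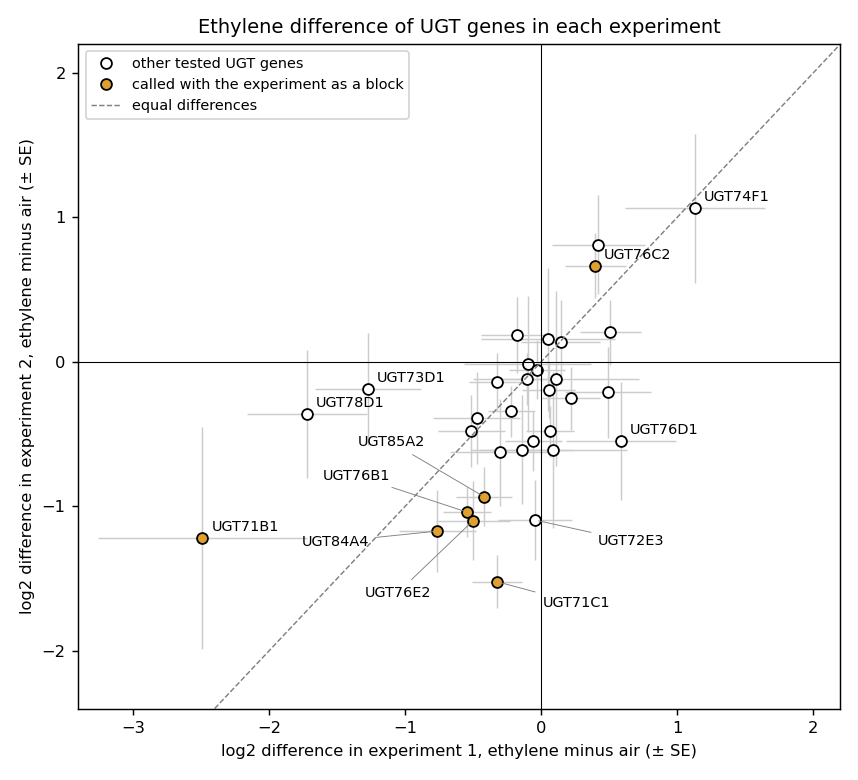
Log2 difference, ethylene minus air, of each of the 33 tested UGT genes within experiment 2 (vertical) and within experiment 1 (horizontal). Each difference is between 2 ethylene and 2 air arrays. Bars are ± 1 SE from 1 model of all 8 arrays, so both experiments share 1 estimate of a gene's spread. Filled points are the 7 genes called with the experiment as a block, and UGT71C1 lies furthest below the line of equal differences among them.

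UGT genes also differed between the experiments. Over both gases, 11 of the 33 genes (33.3%) were higher in experiment 2 than in experiment 1 and none was lower, while 18.2% of all probe sets were higher and 12.4% lower. A positive difference was found for 28 genes, or 84.8%, against 56.2% of all probe sets, and the median was 0.35 against 0.07. This split depended on the scaling of the arrays. Of all probe sets called between experiments, 59.4% were higher in experiment 2 on the deposited scale, 38.1% with median scaling and 52.0% with quantile normalization, and median scaling turned the median of all probe sets to −0.07. With median scaling 8 UGT genes were higher and 1 was lower, where 11.4% of all probe sets were higher and 18.6% lower. With quantile normalization 8 were higher and 1 was lower, where 15.4% of all probe sets were higher and 14.2% lower. Under these scalings 23 of 33 and 24 of 32 UGT genes had a positive difference. UGT78D1 had by far the largest, with all 4 arrays of experiment 2 at 759.7 or more and all 4 of experiment 1 at 261.8 or less. It rose 9.05-fold in experiment 2 (log2 difference 3.18, SE 0.31, limma adjusted p = 2e-05). UGT71B1 followed at 1.65 (limma adjusted p = 0.0355) and UGT72B3 at 1.25 (limma adjusted p = 0.0420). Neither held under every scaling, with a limma adjusted p of 0.0508 for UGT71B1 under quantile normalization and of 0.0545 for UGT72B3 under median scaling. For UGT71B1, ethylene 1-1 of experiment 1 stood at 9.1, and its shift without that array was not tested. The filter used the mean over all arrays, so signal in experiment 2 could carry a gene past it. UGT78D1 and UGT71B1 were under the filter in a fit on experiment 1 alone, and UGT72B3 was the dimmest gene tested. The size of these shifts is thus not free of that choice. All 3 tested genes of subfamily 74 were higher on the deposited scale, UGT74F1 by 1.14 (limma adjusted p = 0.0515 with median scaling), UGT74B1 by 0.81 and UGT74D1 by 0.73. The remaining calls were UGT85A2, UGT72E2, UGT87A2, UGT71C1 and UGT80B1, between 0.48 and 0.85, of which UGT80B1 did not pass with median scaling (limma adjusted p = 0.102) or quantile normalization (0.0918). UGT71B1, UGT71C1 and UGT85A2 also passed in the blocked comparison of ethylene with air, whereas UGT76B1 differed by 0.08 between experiments (limma adjusted p = 0.648). The lowest difference was −0.36, for UGT76C2, whose direction held with median scaling and with quantile normalization, where it passed. The experiments' labels give no further difference between them, so what varied with the experiment cannot be told apart.

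**Figure D4:**
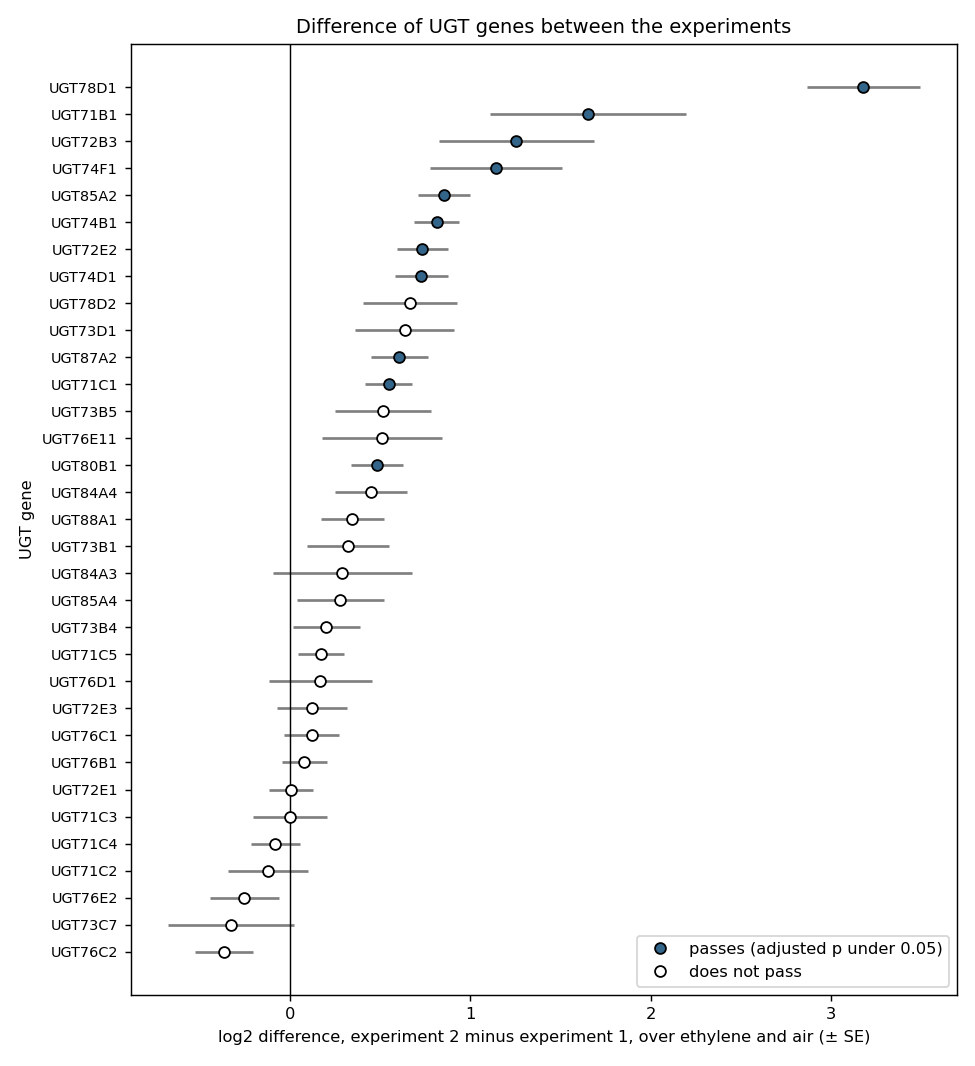
Log2 difference, experiment 2 minus experiment 1, of the 33 tested UGT genes over both gases, with bars of ± 1 SE (4 arrays of each experiment). The 11 filled points pass at an adjusted p under 0.05, all right of 0, with UGT78D1 furthest at 3.18.

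Genes that make UGT substrates, compete for them or act beside UGTs in detoxification were sparsely named in the annotation used. It gave no gene for 8794 of the 22810 probe sets, so a gene missing here can still be on the array. Of 53 listed symbols for hormone inactivation and conjugation, 3 were tested and 2 were lower in ethylene in both models, with none higher. These were GH3.17 and GH3.3, which link auxin to amino acids. Of all probe sets, 2.55% were lower and 1.56% higher with group only, and 7.35% and 4.33% with the block. GH3.17 averaged 5585 ± 659 in ethylene and 13275 ± 1949 in air (SD, n = 4), which is −1.24 on the log2 scale with an SE of 0.15 (limma adjusted p = 0.00118). GH3.3 averaged 1606 ± 325 in ethylene and 2798 ± 465 in air (SD, n = 4), a difference of −0.80 (limma adjusted p = 0.0457).

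The other lists had no member past the test with group only. With the block, 7.35% of all probe sets were lower and 4.33% higher. Of 56 symbols for phenylpropanoid and flavonoid metabolism 5 were tested, and 2 were lower and none higher with the block. CHIL, a chalcone isomerase-like protein, differed by −1.46 (blocked limma adjusted p = 0.0318), and HCT, a hydroxycinnamoyltransferase of the lignin pathway, by −0.42 (blocked limma adjusted p = 0.0171). AOP1 was the tested gene of the glucosinolate list of 35, lower with the block at −0.66 (blocked limma adjusted p = 0.0157). USP, a pyrophosphorylase that makes UDP-sugars, was the measured gene of the UDP-sugar list of 38 and differed by −0.01 (limma adjusted p = 0.99). Of 9 tested glutathione transferases of classes F and U, enzymes that also conjugate foreign chemicals, 1 was higher and 2 were lower with the block. GSTU26 differed by −1.03 (blocked limma adjusted p = 0.000493), GSTU25 by −0.60 (blocked limma adjusted p = 0.0195) and GSTU27 by 0.54 (blocked limma adjusted p = 0.0164). Between experiments, on the deposited scale, 3 of the 9 glutathione transferases were higher in experiment 2 and 1 was lower. Of all probe sets 18.2% were higher and 12.4% lower, and other scalings were not tested for this list.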

How the data were processed

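The authors' deposited table holds linear intensity values, 1 per array, for 22810 probe sets. How probes were summarised, and with which software, is not given in the sources used here. In the deposited table each array's mean after trimming the top and bottom 2% was close to 2500.2, and this scaling was kept.

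Intensities were converted to log2(intensity + 16), so folds of dim genes are understated. After 64 controls and the dimmest 30% by mean were left out, 15922 probe sets were tested in limma 3.58.1 (lmFit, eBayes with an intensity trend, R 4.3.3) on group alone. The p-values were adjusted over all of these by the Benjamini-Hochberg method, and calls needed an adjusted p under 0.05. Alternatives included the experiment as a block, and a model with a mean for each experiment and group gave within-experiment effects. The labels' first number marks an experiment shared by both groups, and deviations of same-numbered samples correlated at r = 0.327, 0.394, 0.593 and 0.464. Differently numbered samples were not correlated, so these values cannot tell a pairing of replicas from a shared experiment. The models were tested on simulated data.

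The array annotation named 1 gene for 13513 probe sets, several for 503 and none for 8794. All 47 UGT symbols matched RefSeq (TAIR10.1), used for names and gene order only, since no build is given for the array. Fully described were genes passing either model; also named were the 5 brightest in air, each larger subfamily's extremes, all untested genes, the 3 largest calls between experiments and up to 4 passing genes per list. Members and lists were chosen with earlier results of these data known. Tables used Python 3.11.15, pandas 2.3.3 and scipy 1.17.1, and plots matplotlib 3.10.9. The number of arrays limits the precision, since such data have no read depth.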

Additional observations from a re-analysis of the deposited data

Results flagged for a closer look

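Of 94 sets of 4 arrays (47 genes in each group), 9 held an array far from the other 3 by Dixon's test, where chance gives about 1 in 20. In tested genes these were ethylene 1-2 of UGT71C4, the highest at 4280.8, ethylene 1-1 of UGT73B1, the lowest at 584, and air 2-1 of UGT73C7, the lowest at 160.2. They were also air 1-1 of UGT74F1, the lowest at 80.7, ethylene 1-1 of UGT78D2, the lowest at 312.5, and ethylene 1-2 of UGT84A4, the lowest at 430.7. In genes under the filter they were air 1-1 of UGT71B6, the lowest at 34.1, ethylene 1-2 of UGT78D3, the highest at 36.0, and air 2-2 of UGT85A3, the highest at 142.4. UGT76D1 had ethylene arrays all below air in experiment 2 and all above air in experiment 1, with 360.0, 322, 274 and 236 in ethylene, against 246, 199.6, 367 and 393 in air. The experiment 2 effect minus the experiment 1 effect was −1.13, which did not pass the test of the difference (limma adjusted p = 0.860).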

How the results depend on the processing

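With group only, ethylene gave 249 higher and 406 lower probe sets. These counts were 689 and 1170 with the experiment as a block, 643 and 1133 with the 4 pairs as blocks, 119 and 130 with replicas as a random block, 747 and 1255 with replicas averaged and the experiment as a block, and 397 and 668 in experiment 2 alone. Leaving out 1 array gave 162 to 728 higher and 214 to 1090 lower, with and without the block. For UGT genes, 0 were higher and 1 lower with group only. The higher count was 1 with the experiment block, 1 with the pair block, 2 with averaged replicas, 1 in experiment 2 alone and 0 to 2 with 1 array left out. The lower count was 6 with the experiment block, 7 with the pair block, 0 with the random block, 7 with averaged replicas, 2 with median scaling, 2 with quantile normalization, 0 in experiment 1 alone, 7 in experiment 2 alone and 0 to 6 with 1 array left out. The 1 gene lower within experiment 1 became 0 with a pseudocount of 64 or quantile normalization. Between experiments, 0 UGT genes were lower, but 1 with median scaling and 1 with quantile normalization. For single genes, UGT76B1 was the gene called with group only, so only its 30 alternative values could lose a call or turn it round. Of these, 25 kept the call, 5 lost it and 0 turned it round. Among all 957 alternative values of the ethylene difference, 68 gained a call. Without air 2-2, 19 of 32 tested genes were negative, with a median of −0.08. The cause of these shifts was not tested. Brightness over background could not be judged without detection calls.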

Other observations

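Several UGT features fell outside the choice by symbol. UGT72B1, listed as GT72B1, encodes a glucosyltransferase known for conjugating chlorinated phenols and monolignols. Its intensities were 3673, 4404, 5791 and 5576 in ethylene, against 6029, 6355, 10166 and 9299 in air. Within each experiment both ethylene arrays were below both air arrays, and the difference was −0.70 (SE 0.22, limma adjusted p = 0.122, or 0.00065 with the experiment as a block). UGT80A2, a sterol glucosyltransferase listed as SGT, differed by −0.16 (SE 0.16, limma adjusted p = 0.759). UGT79B1, an anthocyanin glycosyltransferase listed as UF3GT, and UGT79B6, listed by its locus AT5G54010, were under the filter. The 3 UGT probe sets that name several genes cannot be assigned to either gene. The one shared by UGT71D1 and AT2G29710 differed by −0.59 (SE 0.32, limma adjusted p = 0.484, or 0.0212 with the block). The one shared by UGT73B2 and UGT73B3 differed by −0.26, and the one shared by UGT89B1 and AT1G73885 by 0.03, with neither passing.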
